A study of Mus musculus with 48 samples.

Results

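The genes described here are 55 chromatin regulators, the enzymes and complex subunits that write, erase, read or move chromatin marks and nucleosomes. A peak of open chromatin was given to a member when it overlapped the body of that protein-coding gene (with several genes, the one whose boundary lay nearest the middle of the peak), and otherwise when the member's gene body was the nearest within 100 kb. Of the 55 genes, 53 had a peak, and they held 287 of the 53868 peaks of the table, of which 51109 were given to any gene. Hdac3, a class I histone deacetylase, and Bap1, which removes ubiquitin from histone H2A, had none and are left out. Of the 287 peaks, 233 lay in the gene body and 54 outside it. The number of peaks per member had a median of 3, and the highest numbers were 30 at Chd7, 25 at Arid1b, 18 at Hdac4 and 16 at Tet2. Being nearest to a gene does not show that a peak acts on it, and a peak at a start site shared with a neighbour may have been given to that neighbour.

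Chromatin regulators work largely as complexes. Polycomb repressive complex 2 (PRC2), built on EZH1 or EZH2 with EED and SUZ12, methylates histone H3 at lysine 27, and complex 1 (PRC1), with RING1 or RNF2 and partners such as BMI1, ubiquitinates histone H2A. DNMT enzymes methylate DNA and TET enzymes oxidise that methyl group, histone deacetylases (HDACs) act within the NuRD, SIN3 and NCOR corepressor complexes, and SWI/SNF and CHD proteins shift nucleosomes with ATP. In CD8 T cells under lasting antigen stimulation, DNMT3A, TET2 and PRC2 are among the enzymes known to act on the exhausted state.

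Accessibility was measured by ATAC-seq, in which a transposase cuts open DNA and the reads under each peak are counted. The cells were CD8+ OT-1 T cells, whose receptor recognises an ovalbumin peptide, carrying Cas9 and the CD45.1 marker. They had received a lentiviral guide RNA with an ametrine reporter and were recovered on day 15 from B16-OVA melanomas of young or aged mice. Aged and young, said here of cells, libraries or groups, name the age of these mice. Guides were against Zfp219 (labelled Zfp219KO), against Dusp5 (Dusp5KO), or the control labelled OTC control. Cells were sorted by Slamf6 and Tim-3 into Tprog (Slamf6+ Tim-3-, labelled progenitor exhausted), Ttran (Slamf6+ Tim-3+, transitory, effector-like), Tterm (Slamf6- Tim-3+, terminally exhausted) and Ttad (Slamf6- Tim-3-, age-associated dysfunctional). Both ages gave Tprog, Ttran and Tterm with each of the 3 guides, and aged mice alone gave Ttad, which makes 21 groups and 48 libraries, 24 of each age. Of these groups, 15 had 2 libraries and 6 (young Ttran and Tterm with each guide) had 3. Cells of independent mice were pooled into these replicates, so the spread between libraries is a spread between pools. Accessibility at Zfp219 or Dusp5 does not show whether a guide disrupted its target and was not used as a check. Column names end in an S number that runs separately within each age. What this numbering stands for is not stated, and any difference in handling between its series cannot be told apart from age.

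Values are normalized reads, the reads in a peak divided by a size factor of the library, and every library's values came back to whole reads at a tolerance of 0.01 of a read. Reads in peaks ran from 5638413 to 29942755 with a median of 14691505 (aged 5638413 to 16159054, young 6589023 to 29942755). Over the 33 pairs of libraries of the same group, the chi-square per peak was 2.83 to 4.63, where read sampling alone gives 1. Its median was 2.92 for peaks with 20 to 50 reads in a pair and 3.59 for those with 1000 to 5000, so replicates spread by a nearly constant multiple of sampling error. P-values here measure only the spread between these pooled libraries, which may be technical. All 7 CD8 T cell markers checked (Cd8a, Cd8b1, Cd3e, Cd3d, Cd3g, Lck, Cd2) had peaks, the strongest of each with means of 664.5 to 1455.1 normalized reads. Of the melanoma markers, 3 of 5 had a peak (Tyr and Dct had none) and of the myeloid markers 3 of 5 (Csf1r and Lyz2 had none). The 1 peak of Sox10, counted among the melanoma markers, lay outside the gene body. The summed strongest peaks of the melanoma markers were 923.9 to 972.4 in aged and 1169.6 to 1199.9 in young OTC Tprog, against 817.5 to 840.0 and 937.9 to 975.8 in Tterm. The sums of the myeloid markers were 635.2 to 640.9 and 862.5 to 984.8 in Tprog, against 865.1 to 925.0 and 984.8 to 1067.5 in Tterm. Those of the CD8 T cell markers were 6141.3 to 6991.6 over aged and 7159.0 to 7446.8 over young OTC libraries. Their part in the results was not tested.

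Member genes carried 42 peaks over a listed start site, at 41 of the members. These had a median over peaks of 654.5 normalized reads and a median width of 1585 bp, against 109.6 and 902 bp for the other 245 member peaks. A start site was listed for 45 of the 55 members, so the other peaks can include peaks over the starts of the remaining 10. The strongest single peak lay in Kdm6b, an H3K27 demethylase (chr11:69408605-69412075, mean 3416.4), followed by the start-site peak of Sin3a, the scaffold of the SIN3 corepressor (chr9:57075308-57077205, mean 2896.2). Pbrm1, a SWI/SNF subunit, had the weakest strongest peak (28.9). Start-site peaks varied over a narrower range than the others, as they did over the whole table. The ratio of the highest to the lowest of the 21 group means had a median of 1.53 at start sites (1.21 to 2.29) and 2.43 at 242 other member peaks (1.27 to 62.2), leaving out 3 peaks with a group at 0. Over all genes it was 1.49 at 8894 start-site peaks and 2.8 at 44664 others. Such a ratio also grows with the sampling error of weak peaks, and the other member peaks were weaker. The part of depth in this contrast was not tested. Coordinates are those of the deposited peak names, in mm10, and gene bodies are from RefSeq on GRCm38.p6.

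The PRC1 core shows these start regions well, because its 3 members with a start-site peak, Bmi1, Ring1 and Rnf2, differed between states as described below. The 250 bases before each start site (RefSeq, GRCm38.p6) are printed from 5' to 3' on the strand of the gene. They are chr2:18676768-18677017 on the plus strand for Bmi1, chr17:34024681-34024930 on the minus strand for Ring1 and chr1:151500992-151501241 on the minus strand for Rnf2. Capitals mark matches, on either strand and with overlaps kept, to 6 motifs: GGGCGG (the GC box bound by SP and KLF factors), CCAAT (NF-Y), CCGGAA (ETS), GCATGCGC (NRF1), TGANTCA (AP-1) and TGTGGT (RUNX).
Bmi1: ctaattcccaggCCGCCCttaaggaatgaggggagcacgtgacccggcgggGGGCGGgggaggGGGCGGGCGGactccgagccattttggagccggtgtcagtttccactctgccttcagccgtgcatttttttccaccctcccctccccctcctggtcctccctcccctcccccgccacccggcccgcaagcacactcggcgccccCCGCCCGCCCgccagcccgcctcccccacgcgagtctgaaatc
Ring1: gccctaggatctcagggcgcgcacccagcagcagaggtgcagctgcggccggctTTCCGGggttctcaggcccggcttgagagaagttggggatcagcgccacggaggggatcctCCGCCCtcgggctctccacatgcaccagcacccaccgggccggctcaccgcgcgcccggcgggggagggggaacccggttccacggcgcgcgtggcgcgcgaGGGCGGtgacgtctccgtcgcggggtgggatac
Rnf2: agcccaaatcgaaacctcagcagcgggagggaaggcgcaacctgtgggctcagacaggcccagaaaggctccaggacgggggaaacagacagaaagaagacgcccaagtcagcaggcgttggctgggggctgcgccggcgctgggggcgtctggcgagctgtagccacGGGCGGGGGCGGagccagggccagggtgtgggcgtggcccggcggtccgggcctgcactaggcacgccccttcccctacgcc
For members the start under the peak and nearest its middle was taken, but for the other sets the first listed start of each gene. The sets thus differ in how the start was chosen. GGGCGG was found in the 250 bases before 85.4% of 41 member start sites. In the other sets it was found for 62.2% of 8652 genes with a start-site peak and 32.9% of all 27025 genes of the reference table. The corresponding shares were 24.4%, 36.9% and 34.5% for CCAAT, 24.4%, 22.8% and 12.2% for CCGGAA, 9.76%, 10.9% and 14.2% for TGTGGT, and 4.88%, 3.94% and 6.87% for TGANTCA. For GCATGCGC they were 4.88%, 4.66% and 2.32%. The median number of CpG dinucleotides was 24 before member starts, 16 for genes with a start-site peak and 6 for all genes. A match to letters is a description of the sequence, not a site.

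Each comparison asked which member peaks differed between groups, and a peak counted as called when its adjusted p, by limma, was below 0.05 over all 53868 peaks. Apart from start-site and strongest peaks, peaks were named from calls whose libraries did not overlap between the groups compared. Tests of whether an effect differed between ages did not ask this. Where it was asked, lack of overlap is part of the choice and no further result. Comparing progenitor with terminal cells in OTC controls, 70 member peaks were called in aged mice and 74 in young mice, at 28 of the members in the aged. In the aged, every call at Ezh1 (1), Ezh2 (3) and the DNA demethylase gene Tet3 (2) was higher in Tprog, and every call at the NuRD genes Mta3 (6) and Gatad2a (4) and the remodeller gene Chd7 (9) was lower. In the young, Ezh1 had 1 higher call, Ezh2 had 2 higher and 1 lower, and Tet3 had 3 higher and 1 lower. The 5 young calls at Mta3 and the 5 at Chd7 were lower, and the 1 at Gatad2a was higher. In aged mice, 24 of the 70 were higher and 46 lower in Tprog, which is 24.4% of member peaks against 20.1% of all peaks (8.88% higher and 11.2% lower). In young mice 29 were higher and 45 lower, 25.8% against 26.5% of all peaks (13.9% higher and 12.6% lower). These shares are near the background, and so were those of 389 peaks at 89 other chromatin regulators (76 called, 19.5%, in the aged and 103, 26.5%, in the young). The median log2 difference was -0.07 over member peaks and 0.01 over all peaks in the aged. The same peak was called at both ages in 32 cases, 45.7% of the aged and 43.2% of the young calls, and 30 of these went the same way. Over all peaks the shares called at both ages were 63.2% and 47.8%. Without the aged OTC Tprog replicate 1 the aged count was 39, and without the aged OTC Tterm replicate 1 it was 43. With each group reduced to a single value, its mean, in an additive model of state and guide within each age, the young count was 131.

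Between the transitory and the terminal state the differences were fewer. In aged OTC controls, 13 member peaks were called between Ttran and Tterm, 9 higher and 4 lower in Ttran, 4.53% against 3.22% of all peaks (1.87% higher and 1.35% lower). Hdac7 and Hdac4, class IIa deacetylase genes, had all of the 5 calls among deacetylases, each higher in Ttran. After quantile normalization 8 of 9 calls were higher. In young controls there were 40 calls, 16 higher and 24 lower in Ttran, 13.9% against 8.38% (5.02% higher and 3.36% lower), and 39 (10%) among the other regulators. Of the 24 lower peaks, 18 were start-site peaks. With TMM factors 19 of 38 young calls were higher. The aged count fell to 2 or 5 without the aged OTC Tterm replicate 1 or 2, and to 6 without the aged OTC Ttran replicate 1.

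The Slamf6- Tim-3- state of aged mice was compared with Tterm and with Tprog in aged OTC controls. Against Tterm, 20 member peaks were called, 4 higher and 16 lower in Ttad, 6.97% against 7.28% of all peaks (3.02% higher and 4.26% lower). Against Tprog, 24 were called, 14 higher and 10 lower, 8.36% against 6.55% (3.82% higher and 2.73% lower). Peaks at Ezh1, Ezh2 and Setd2, which methylates H3 at lysine 36, were lower in Ttad than in Tprog. Of the 11 NuRD and CHD calls 9 were higher, at Chd7 (4), Gatad2a (3) and Mta3 (2). The peak at Eed lay between Tprog and Tterm. The count against Tterm was 5 without the aged OTC Ttad replicate 1, and 6 and 12 without the aged OTC Tterm replicates 1 and 2. The count against Tprog was 10, 12 and 10 without the aged OTC Tprog replicates 1 and 2 and the Ttad replicate 1.

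Age was compared within OTC controls as the mean over Tprog, Ttran and Tterm. Here the test called 103 member peaks, 31 higher and 72 lower in cells from aged mice. This is 35.9% of member peaks against 36.5% of all peaks (17.3% higher and 19.1% lower). Of the other regulators' 389 peaks, 134 were called, 60 higher and 74 lower. Lower calls led at the NuRD and CHD genes (27 of 36), the deacetylases (13 of 16) and the SWI/SNF genes (14 of 17), and higher calls at the TET genes (6 of 8). Genes with many peaks weigh most here. Tet2 had 5 of the higher TET calls, Hdac4 and Hdac7 had 6 and 5 of the lower deacetylase calls, and Chd7 and Arid1b had 9 and 7 lower calls. With each group reduced to a single value, 61 were called. Since aged and young libraries were numbered in separate series, a difference in handling between the series cannot be told apart from age in these values.

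The guides against Zfp219, a zinc-finger protein gene, and Dusp5, which encodes a phosphatase of ERK, were compared with OTC as means over states. With the Zfp219 guide in aged mice, 87 member peaks were called, 48 higher and 39 lower, 30.3% against 25.8% of all peaks (12.1% higher and 13.7% lower). By state, there were 4 calls in Tprog, 54 in Ttran, 9 in Tterm, with 23 for Ttad, beside 2.56%, 14.2%, 3.57% and 8.23% of all peaks. All 8 calls at histone methyltransferase genes other than EZH were higher. They include the only peak of Ehmt1, at its start site, and start-site peaks of the whole table also went mostly higher, as given below. In young mice 32 were called with the Zfp219 guide, 2 higher and 30 lower, 11.1% against 7.07% (1.92% higher and 5.15% lower). With the Dusp5 guide, 40 were called in aged mice, 7 higher and 33 lower, 13.9% against 12.2% (4.35% higher and 7.87% lower). All 8 deacetylase calls and 16 of 17 NuRD and CHD calls among them were on the lower side, but came from few genes. Hdac4 had 7 of the 8, and Chd7 had 8 and Gatad2a 7 of the 17. In young mice the Dusp5 count was 16, 4 higher and 12 lower, 5.57% against 3.82% (1.80% higher and 2.02% lower). It was 8 without the young Dusp5 Tprog replicate 1 or the young OTC Tprog replicate 1, and 10 without the young Dusp5 Tterm replicate 2 or the young OTC Ttran replicate 2. After quantile normalization, 4 of 21 Zfp219 calls in young mice were higher, 7 of 25 Dusp5 calls in aged mice and 1 of 7 in young mice. With each group reduced to a single value, 35, 9, 6 and 3 of these calls were made for Zfp219 aged and young and Dusp5 aged and young. Marker levels differed with the guides too. In aged Tterm the summed CD8 T cell markers were 5862.7 to 6074.2 with the Dusp5 guide and 6691.2 to 6903.0 with the Zfp219 guide, against 6748.6 to 6777.0 in OTC. In young Tterm they were 6366.4 to 6518.6 and 6589.4 to 6911.3, against 7159.0 to 7446.8. The melanoma marker sums in aged Ttran were 628.3 to 719.1 with the Dusp5 and 684.7 to 779.8 with the Zfp219 guide, against 846.9 to 857.7 in OTC, and the myeloid sums were 777.1 to 817.3 and 823.9 to 830.6 against 867.2 to 875.5. Their part in the guide results was not tested.

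**Figure D1:**
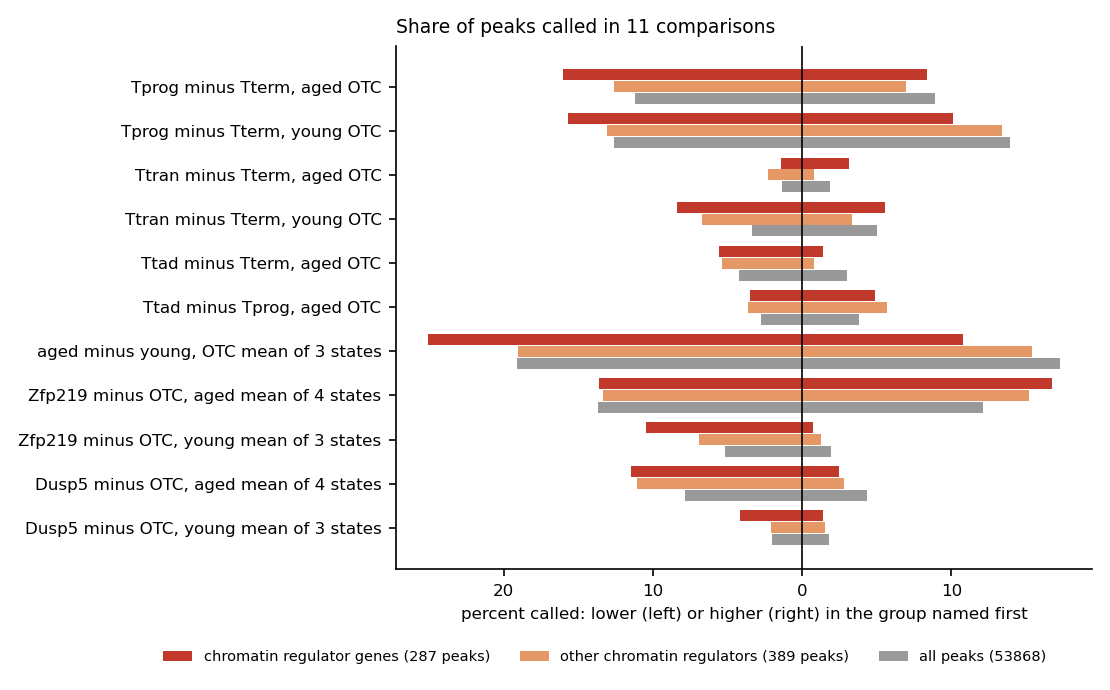
Percent of peaks called higher (right of 0) or lower (left of 0) in the group named first, on a linear axis, for 287 peaks of chromatin regulator genes, 389 peaks of other chromatin regulators and all 53868 peaks. The red bars are longer to the left than to the right for age (72 lower and 31 higher), for Zfp219 in young mice (30 and 2) and for Dusp5 in aged mice (33 and 7).

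Polycomb repressive complex 2 genes carried 23 peaks. Between Tprog and Tterm, 7 were called in aged (4 higher, 3 lower) and 9 in young controls (3 higher, 6 lower). Over all peaks, 20.1% were called in aged (8.88% higher, 11.2% lower) and 26.5% in young controls (13.9% higher, 12.6% lower). Ezh1 encodes the alternative catalytic subunit, common in cells that do not divide. A peak in its gene body (chr11:101194324-101195869) had 373 and 337 normalized reads in aged OTC Tprog, 214 and 217 in Ttran, 101 and 125 in Tterm, and 117 and 116 in Ttad. In young OTC it had 231 and 317 in Tprog, 137, 197 and 127 in Ttran, and 56.3, 113 and 109 in Tterm. The Tprog libraries were thus the highest at each age, Ttran lay between, and Ttad lay within the range of Tterm. The log2 difference between Tprog and Tterm was 1.65 (SE 0.26, adjusted p = 2.1e-07, 3.13-fold) in the aged and 1.60 (SE 0.23, adjusted p = 2.8e-08, 3.04-fold) in the young. The log2 difference of Ttad from Tprog was -1.60 (SE 0.26, adjusted p = 5.4e-06; edgeR adjusted p = 1.4e-07). The Tprog and Tterm difference was called with the other guides too, at 1.61 and 1.96 for aged Zfp219 and Dusp5 and 1.73 and 1.62 for young Zfp219 and Dusp5.

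With the Zfp219 guide the same Ezh1 peak was lower in aged mice in all 4 states. The libraries had 196 and 208 in Tprog, 75.5 and 112 in Ttran, 61.2 and 70 in Tterm and 53.4 and 84.4 in Ttad. The mean log2 difference was -0.90 (SE 0.13, adjusted p = 1.9e-08). In young mice the corresponding value was 0.16 (SE 0.13, adjusted p = 0.52), with 339 and 341 in Tprog, 227, 99.5 and 139 in Ttran and 96.9, 125 and 86.6 in Tterm. The 2 effects differed by -1.09 over the 3 shared states (SE 0.20, adjusted p = 3.7e-05).

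Ezh2 encodes the main catalytic subunit in dividing cells, and 2 of its 9 peaks are described here, both higher in aged OTC Tprog than in Tterm. The peak in the gene (chr6:47559526-47561848) had 439 and 360 in aged OTC Tprog and 171 and 193 in Tterm. Young OTC libraries had 638 and 650 in Tprog and 322, 329 and 291 in Tterm. The log2 difference was 1.12 (SE 0.17, adjusted p = 6.6e-08) in the aged and 1.04 (SE 0.15, adjusted p = 3.6e-08) in the young. Every young library was above every aged library of its state, and the peak was lower with age by a log2 difference of -0.68 (SE 0.09, adjusted p = 1.2e-09). A peak 25521 bp outside the gene (chr6:47620791-47621898) had 794 and 846 in aged OTC Tprog, 498 and 564 in Ttran, 422 and 405 in Tterm and 501 and 456 in Ttad. Ttad was below Tprog there by -0.78 on the log2 scale (SE 0.11, adjusted p = 5.5e-07; edgeR adjusted p = 6.1e-08).

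Eed encodes the subunit that reads the methyl mark, and its farthest peak ran the opposite way. That peak lies 60288 bp outside the gene (chr7:90041264-90042942), which was the nearest gene body. It had 618 in each aged OTC Tprog library, 853 and 914 in Ttad, 1051 and 941 in Ttran and 1193 and 1288 in Tterm. The 4 states did not overlap. Ttad was above Tprog by 0.51 (SE 0.09, adjusted p = 7.2e-05; edgeR adjusted p = 6.1e-05) and below Tterm by -0.49 (SE 0.09, adjusted p = 0.00012; edgeR adjusted p = 2.6e-05). In young OTC, Tprog had 667 and 640, Ttran 1040 to 1164 and Tterm 999 to 1127, and Tprog was lower than Tterm by -0.70 (SE 0.09, adjusted p = 9e-11). The single peak of Suz12, at its start site, was lower in young Tprog than Tterm by -0.28 (adjusted p = 0.033).

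**Figure D2:**
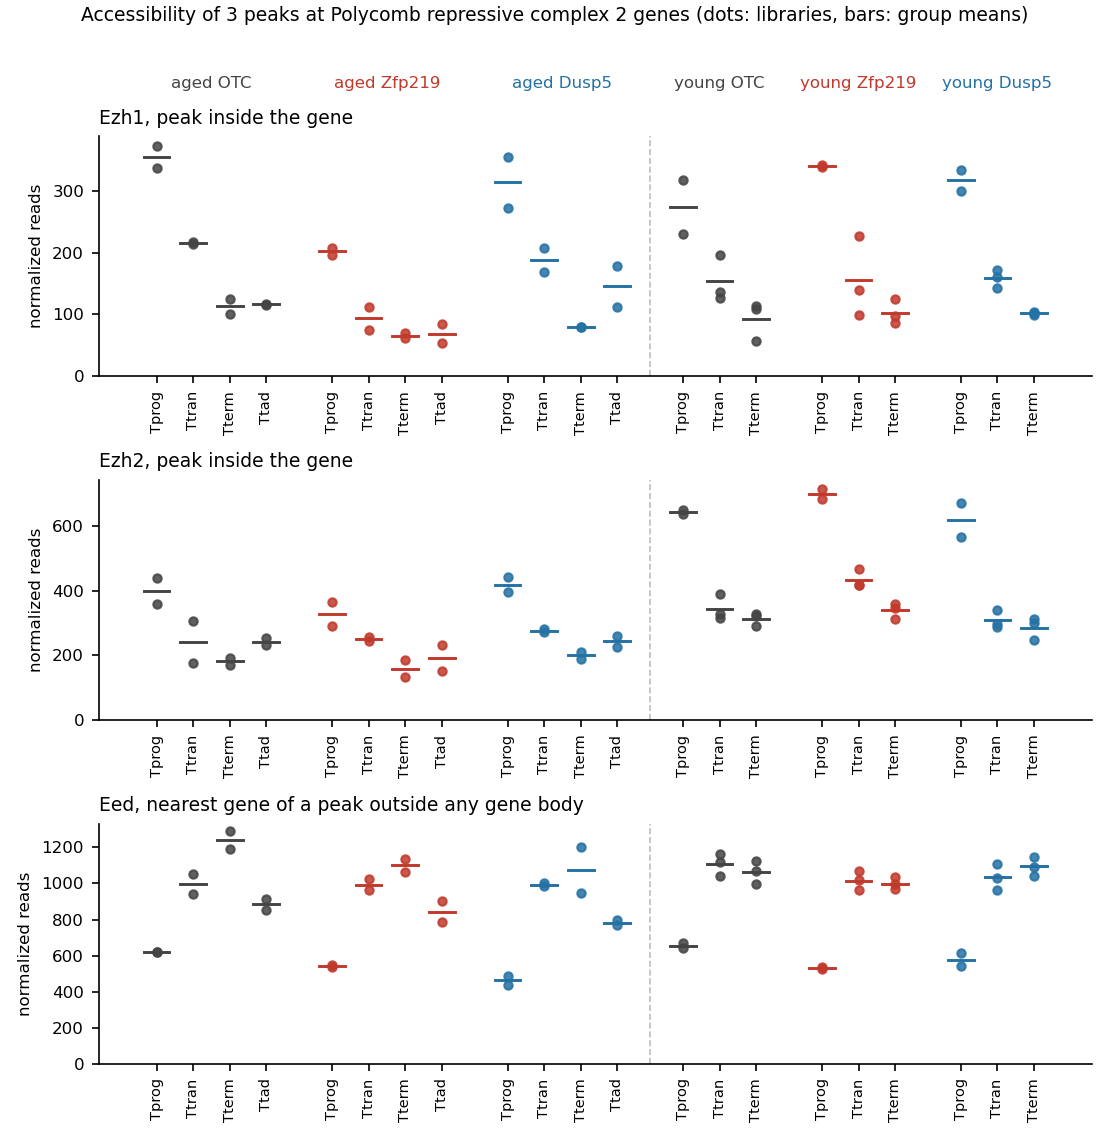
Normalized reads (linear axis from 0) of 1 peak each at Ezh1, Ezh2 and Eed in the 21 groups; dots are libraries, horizontal bars group means, colours the guides, and the dashed line separates aged from young. In each set of groups the mean of Tprog was highest at Ezh1 and Ezh2 and lowest at Eed, and the aged Zfp219 groups lay below the aged OTC groups at Ezh1.

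Of the 7 peaks at PRC1 genes and Asxl1, a partner of the H2A deubiquitinase, none was called between aged Tprog and Tterm. In young controls 2 were lower in Tprog and 3 lower in Ttran than in Tterm. These 3 comparisons called 20.1%, 26.5% and 8.38% of all peaks. The Bmi1 start-site peak (chr2:18676486-18677837), whose upstream sequence is printed above, had 229 and 227 in young OTC Tprog, 264, 251 and 270 in Ttran, and 429, 423 and 409 in Tterm. No Tterm library overlapped the other states. The log2 difference from Tterm was -0.88 for Tprog (SE 0.14, adjusted p = 2e-07) and -0.68 for Ttran (SE 0.12, adjusted p = 3.8e-05). In aged OTC the libraries had 302 and 346 in Tprog, 342 and 280 in Tterm, 218 and 257 in Ttran and 361 and 254 in Ttad. Tprog and Tterm overlapped there, with a difference of 0.06 (SE 0.15, adjusted p = 0.83). The change of this difference with age was 0.94 (SE 0.20, adjusted p = 0.0022), and it missed the threshold without the aged OTC Tterm replicate 2 (adjusted p = 0.052).

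The start-site peak of Ring1 (chr17:34024300-34025169), which encodes a ubiquitin ligase, had 313 and 264 in young OTC Tprog, 269, 242 and 253 in Ttran and 404, 377 and 407 in Tterm. Ttran was below Tterm by -0.64 (SE 0.13, adjusted p = 0.00029) and Tprog by -0.46 (adjusted p = 0.011). At Rnf2, the gene of the other ligase (chr1:151499910-151501413), the libraries had 528 and 545 in Tprog, 403, 399 and 347 in Ttran and 554, 497 and 543 in Tterm, and Ttran was below Tterm by -0.47 (SE 0.11, adjusted p = 0.0016). The Rnf2 Tprog libraries lay within the range of Tterm, which the Bmi1 ones did not.

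Over all 42 start-site peaks of members, 21 were called between young OTC Tprog and Tterm, 18 of them lower in Tprog. Between young Ttran and Tterm 22 were called, again 18 lower. Over all 8895 start-site peaks of the table, 24.4% were called in the Tprog comparison (712 higher and 1457 lower) and 15.8% in the Ttran comparison (282 higher and 1124 lower). The median log2 difference of the member start sites was -0.23 for Tprog and -0.27 for Ttran, against 0.01 over all peaks in each. Those lower in both included Bmi1 and Ring1, described above, and Arid1b, Kmt2c, Kmt2d, Ehmt1, Crebbp, Ncor1, Dnmt3a and Hdac7. The start-site peaks of Kdm4a, Gatad2a and Hdac4 were higher in both comparisons. In young Zfp219 cells 23 start sites were called between Tprog and Tterm, 21 lower, and in young Dusp5 cells 18, 16 lower. Over all 287 member peaks, those comparisons called 85 (26.8% of all peaks called) and 87 (29.8%). The directions of all start-site peaks of the table are not given for these guide comparisons. In young OTC they too were mostly lower in Tprog, so the lean of the member start sites is not particular to the members there. In aged OTC 6 of the 42 were called, 1 higher and 5 lower, against 983 of all 8895 start-site peaks (315 higher and 668 lower). After quantile normalization 4 were called, 2 in each direction, against 470 higher and 264 lower over all start-site peaks.

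In aged Zfp219 cells 4 start sites were called between Tprog and Tterm, 3 of them higher, and in aged Dusp5 cells 9, 7 of them higher, among 59 (18.8% of all peaks called) and 83 (22.9%) member peaks called. The directions of all start-site peaks of the table are not given for these comparisons, so the member counts have no background by direction. At Arid1b, the DNA-binding SWI/SNF subunit gene, the start-site peak (chr17:4993764-4996973) had 586 and 630 in young OTC Tprog, 532, 555 and 622 in Ttran and 935, 975 and 968 in Tterm. Tprog was below Tterm by -0.66 (SE 0.10, adjusted p = 2.4e-08) and Ttran by -0.75 (SE 0.09, adjusted p = 8.9e-11). In young Zfp219 and Dusp5 cells the difference of Tprog from Tterm was -0.61 and -0.51 (adjusted p = 2.3e-07 and 9.1e-06). In aged OTC it was 0.02 (adjusted p = 0.92), with 649 and 690 in Tprog and 631 and 688 in Tterm. In aged Dusp5 cells it was 0.59 (adjusted p = 5.3e-06), with 829 and 796 in Tprog and 565 and 517 in Tterm. The age difference in OTC was 0.68 (SE 0.14, adjusted p = 0.0012).

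With the Zfp219 guide in aged mice, 20 member start sites were called, 16 higher and 4 lower, against 1884 higher and 563 lower of the 8895 start-site peaks. With a single value per group 4 were called, 3 of them higher. The share of the normalized reads in all peaks that fell in start-site peaks moved with these results. It was 36.84% to 36.98% in young OTC Tprog, 35.88% to 36.77% in Ttran and 38.24% to 38.45% in Tterm. In aged OTC it was 37.15% to 37.31% in Tprog, 36.05% to 36.31% in Ttran, 37.21% to 37.58% in Tterm and 37.74% to 37.94% in Ttad. It was 38.18% to 40.05% in the aged Zfp219 groups, 38.62% to 39% in aged Dusp5 Tprog and 36.1% to 36.39% in aged Dusp5 Tterm. Its part in the start-site results was not tested.

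**Figure D3:**
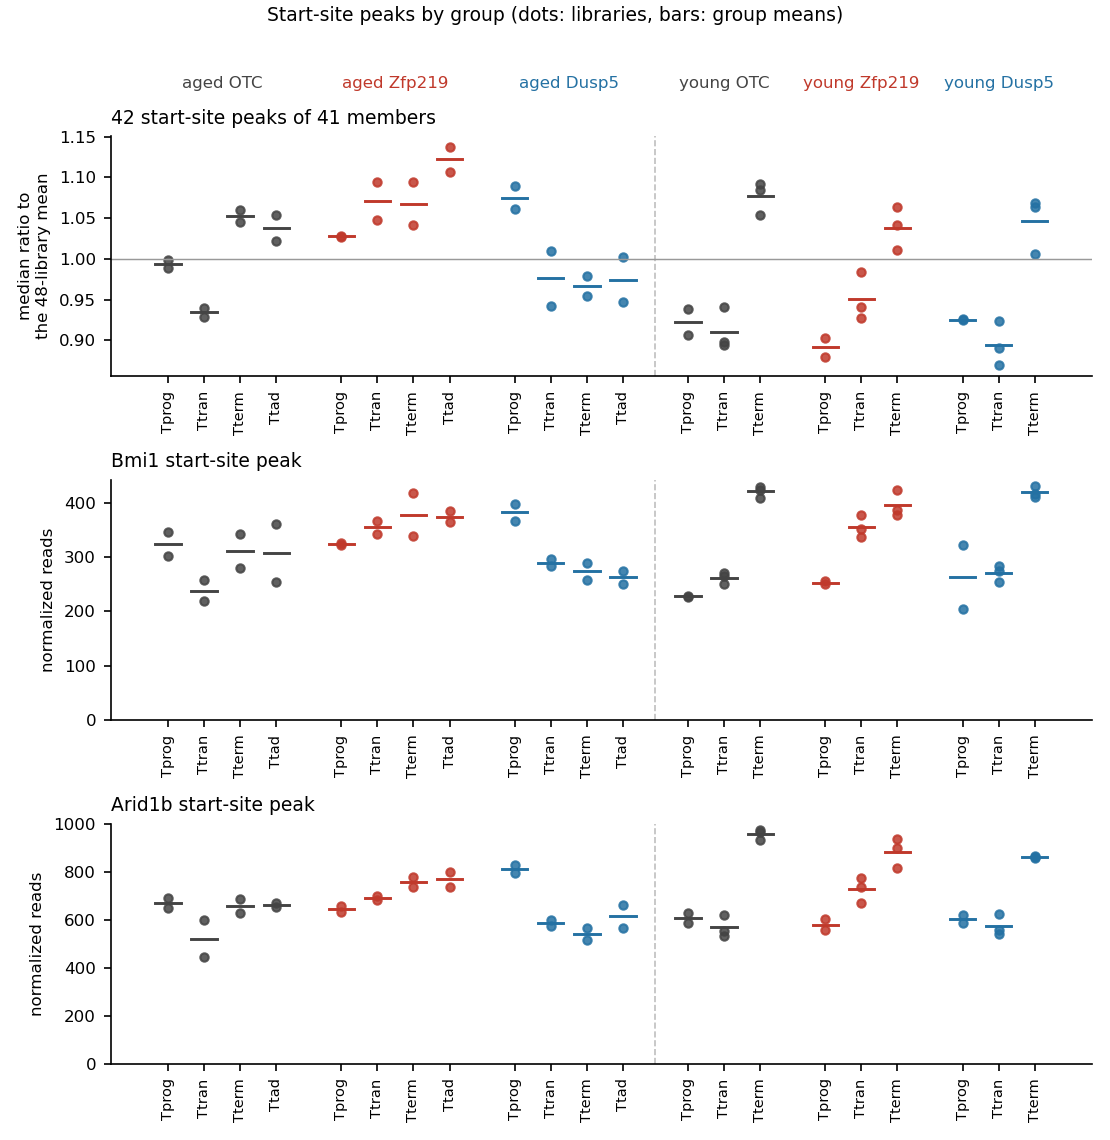
Top, the median over 42 member start-site peaks of the ratio of a library to the mean of all 48 libraries (linear axis, not from 0); below, normalized reads of the Bmi1 and Arid1b start-site peaks (axes from 0). Dots are libraries and bars group means; with each guide the young Tterm libraries lay above young Tprog and Ttran in the top panel, and with the Dusp5 guide aged Tterm lay below aged Tprog.

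DNA methyltransferase genes carried 21 peaks and TET genes 27. Between Tprog and Tterm, 5 methyltransferase peaks were called in aged (1 higher, 4 lower) and 4 in young controls (2 and 2). For TET genes the counts were 5 (3 higher, 2 lower) and 10 (6 higher, 4 lower). The shares called over all peaks were 20.1% in aged and 26.5% in young controls. TET3 is one of the TET dioxygenases, and a narrow peak in its gene (chr6:83421701-83421941) had the largest difference named in the young. It had 78.1 and 83 in young OTC Tprog, 3.53, 8.6 and 7.39 in Ttran and 3.79, 1.57 and 9 in Tterm. The log2 difference between Tprog and Tterm was 4.03 (SE 0.67, adjusted p = 9.6e-07). The Tterm libraries rest on few reads. In aged OTC it had 46.4 and 53.2 in Tprog, 30.1 and 52.6 in Ttran, 6.54 and 8.25 in Tterm and 21.8 and 9.86 in Ttad. The aged Ttran libraries lay above both Tterm libraries, and the difference of Tprog from Tterm was 2.60 (SE 0.74, adjusted p = 0.0055). It missed the threshold without the aged OTC Tprog replicate 2 or Tterm replicate 1 (adjusted p up to 0.057).

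Tet2 encodes the TET enzyme often mutated in blood cancers, and its peaks outside the gene varied with state and age. The peak 37095 bp away (chr3:133582231-133583997) had 384, 381 and 453 in young OTC Ttran and 283, 219 and 256 in Tterm, a difference of 0.69 (SE 0.12, adjusted p = 9.8e-06). The peak 81284 bp away (chr3:133626420-133627507) had 254 and 224, 308 and 249, and 183 and 191 in aged OTC Tprog, Ttran and Tterm. In young OTC it had 214 and 157, 184, 166 and 194, and 116, 103 and 151. Aged libraries lay above young ones in each state, by 0.54 (SE 0.12, adjusted p = 0.00013). Dnmt3a encodes a de novo DNA methyltransferase. A peak in its gene (chr12:3896631-3897862) was lower with age by -0.66 (SE 0.11, adjusted p = 4.3e-07), and another (chr12:3870777-3871884) was lower with the Dusp5 guide in aged mice by -0.22 (SE 0.05, adjusted p = 0.0002). The latter had 1024 to 1174 over the 8 aged OTC libraries and 869 to 999 over the 8 aged Dusp5 libraries. With the Zfp219 guide it was lower in both ages, by -0.31 (adjusted p = 4.7e-08) in aged and -0.25 (adjusted p = 5.6e-05) in young mice.

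Histone methyltransferase genes other than EZH had 19 peaks. Between young Tprog and Tterm 7 were called, 6 lower, and in aged controls 1 was called, beside 26.5% and 20.1% of all peaks. Setd2 had a small peak in its gene (chr9:110593709-110594286) with 47.6 and 43.5 in aged OTC Tprog, 21.1 and 9.56 in Ttran, 4.36 and 18.3 in Tterm and 8.38 and 7.39 in Ttad. Tprog was above Tterm by 2.19 (SE 0.64, adjusted p = 0.0072) and Ttad below Tprog by -2.39 (SE 0.64, adjusted p = 0.01). In young OTC Tprog had 65.2 and 47.9 and Tterm 12, 16.5 and 16.9, a difference of 1.83 (SE 0.58, adjusted p = 0.012). The aged difference missed the threshold without the aged OTC Tprog or Tterm replicate 1 (adjusted p up to 0.31), and the young difference without the young OTC Tprog replicate 1 (0.13). The difference of Ttad from Tprog missed it without any 1 of the 4 libraries (adjusted p up to 0.097). Kmt2a, an H3K4 methyltransferase gene, had a peak (chr9:44878970-44879350) with 111 to 169 over the 8 aged OTC libraries and 159 to 210 over the 8 aged Zfp219 libraries. It was higher with the guide by 0.49 (SE 0.10, adjusted p = 0.0001).

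Histone demethylase genes had 9 peaks. Kdm4a encodes an H3K9 and H3K36 demethylase. Its peak in the gene (chr4:118161625-118162726) had 139 and 115 in aged OTC Tprog, 182 and 190 in Ttran, 271 and 214 in Tterm and 104 and 177 in Ttad. The young OTC values were 302 and 306, 331, 339 and 405, and 380, 345 and 331. Every young OTC library was above every aged one, and the mean age difference was -0.91 (SE 0.10, adjusted p = 4.1e-13). Ttad was below Tterm by -0.82 (SE 0.18, adjusted p = 0.00097), a call lost without the aged OTC Ttad or Tterm replicate 1 (adjusted p up to 0.27). At the strongest member peak, in Kdm6b, the libraries ran from 2937 to 4059 over all 48.

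The 29 deacetylase peaks gave 11 calls between aged Tprog and Tterm (8 higher, 3 lower) and 8 in the young (5 higher, 3 lower). Most were at Hdac4, and 20.1% and 26.5% of all peaks were called. HDAC4 is a class IIa deacetylase that shuttles between nucleus and cytoplasm and binds MEF2 factors. Of its 18 peaks 17 lay within the gene, and peaks differed in direction along it. The peak 253.4 kb from the 5' end (chr1:91941464-91943125) had 374 and 329 in aged OTC Tprog, 232 and 284 in Ttran, 149 and 135 in Tterm and 218 and 201 in Ttad. In young OTC it had 143 and 105, 93.6, 102 and 100, and 70.8, 45.6 and 63. Tprog was above Tterm by 1.3 (SE 0.25, adjusted p = 2.7e-05) in the aged and 1.05 (SE 0.23, adjusted p = 0.00016) in the young. Cells from aged mice were above those from young mice by 1.38 (SE 0.14, adjusted p = 1.1e-14). With the Zfp219 guide in aged mice the libraries were 229 and 259, 128 and 105, 56 and 70.8, and 97.5 and 81.8, lower by -1.01 (SE 0.13, adjusted p = 2.2e-10).

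The peak 211.4 kb from the Hdac4 5' end (chr1:91983512-91985049) had the reverse directions. It had 46.4 and 70.1 in aged OTC Tprog, 99.3 and 82.9 in Ttran and 93.7 and 131 in Tterm. In young OTC it had 126 and 115, 210, 246 and 151, and 255, 274 and 259. It was lower in cells from aged mice by -1.14 (SE 0.13, adjusted p = 1.3e-11). Against OTC, it was higher with the Zfp219 guide in aged mice by 0.65 (SE 0.12, adjusted p = 1.7e-05) and lower in young mice by -0.42 (SE 0.13, adjusted p = 0.024). The difference of these effects over the 3 shared states was 1.03 (SE 0.19, adjusted p = 6e-05).

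Nearer to the start, the Hdac4 peak at 47.0 kb (chr1:92148203-92149189) had the largest age difference named. Aged OTC libraries had 36.2 and 20.4 in Tprog, 21.1 and 31.9 in Ttran and 29.4 and 35.7 in Tterm, and young ones 96 and 125, 114 to 125, and 94.4 to 135. The log2 difference was -1.98 (SE 0.20, adjusted p = 4.9e-14, 3.96-fold). The 3 states overlapped at each age. With the Zfp219 guide it was higher in aged mice by 0.84 (SE 0.19, adjusted p = 0.00026).

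The peak at 112.6 kb (chr1:92082706-92083539) had the largest difference named with the Dusp5 guide in aged mice. Aged OTC libraries had 408 and 398 in Tprog, 411 and 532 in Ttad, 526 and 411 in Tterm and 581 and 577 in Ttran. Aged Dusp5 libraries had 249 and 295, 290 and 307, 293 and 189, and 249 and 304. Every Dusp5 library was below every OTC library, and the mean log2 difference was -0.82 (SE 0.08, adjusted p = 1.2e-13, 1.76-fold). In young mice it was -0.52 (SE 0.08, adjusted p = 2.7e-06), with 177 to 275 over the 8 Dusp5 libraries and 314 to 383 over the 8 OTC libraries. Under the Zfp219 guide the difference was -0.48 (SE 0.08, adjusted p = 6.5e-07) in aged and -0.23 (SE 0.08, adjusted p = 0.055) in young mice, and edgeR called the young value (adjusted p = 0.029). Next to it, at 108.9 kb (chr1:92086196-92087415), Ttad lay below Tterm by -0.94 (SE 0.15, adjusted p = 2.7e-06; edgeR adjusted p = 4.4e-07), with 265 and 307 against 556 and 542. At 191.4 kb (chr1:92003875-92004752), young OTC Tprog had 143 and 151 and Tterm 46.1, 44 and 70.9, a difference of 1.47 (SE 0.28, adjusted p = 2.4e-05).

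**Figure D4:**
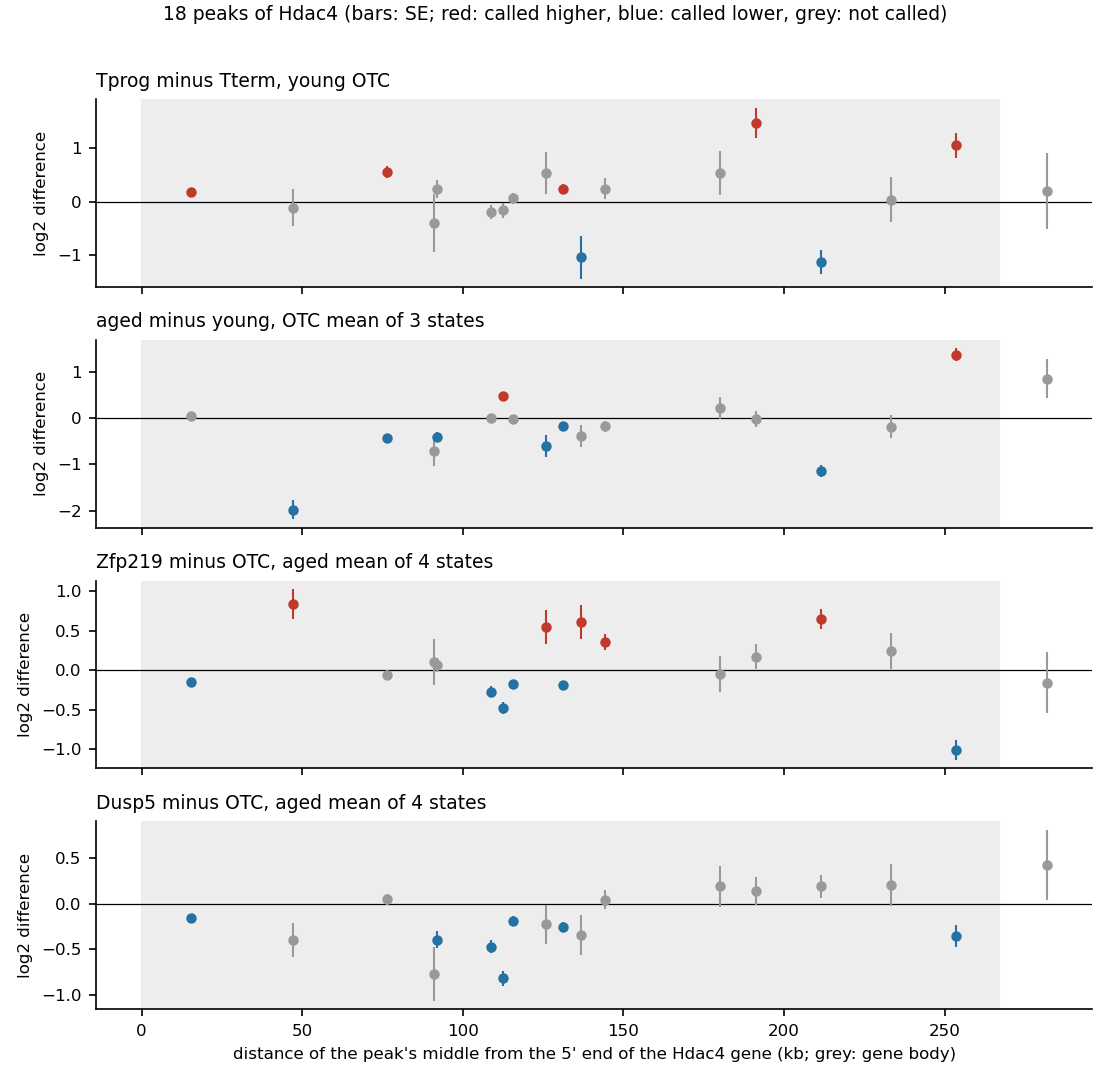
Log2 difference (linear axis, bars are SE) of the 18 Hdac4 peaks against distance from the gene's 5' end in 4 comparisons; red and blue mark calls higher and lower in the group named first. Calls went in both directions by state, age and Zfp219 guide, and all 7 calls with the Dusp5 guide were lower.

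Acetyltransferase genes had 15 peaks. At Kat6a, a MYST-family enzyme gene, a peak 19943 bp outside the gene (chr8:22838378-22839499) had 84.5 to 120 over the 6 aged OTC libraries of Tprog, Ttran and Tterm and 179 to 265 over the 8 young ones. The age difference was -1.0 (SE 0.12, adjusted p = 7.6e-12). In aged mice it was higher with the Zfp219 guide by 0.73 (SE 0.11, adjusted p = 4.7e-08), at 134 to 248 over 8 libraries. With the Dusp5 guide the effect was 0.41 (adjusted p = 0.0039) in aged and -0.29 (SE 0.11, adjusted p = 0.12) in young mice, and the difference between ages over the 3 shared states was 0.79 (SE 0.16, adjusted p = 0.00082). Kat2a, which encodes the GCN5 acetyltransferase, had 1 peak, at its start site (chr11:100712024-100712887). It had 65.2 and 71 in young OTC Tprog and 146, 167 and 116 in Tterm, a difference of -1.04 (SE 0.22, adjusted p = 0.00013).

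SWI/SNF genes had 50 peaks, 25 of them at Arid1b. The Arid1b peak chr17:5255459-5256167 had 41.9 and 23.1 in aged OTC Tprog, 33.5 and 32 in Ttad, 97.8 and 112 in Ttran and 94.8 and 103 in Tterm. Tprog and Ttad thus lay together, as did Ttran and Tterm. Ttad was below Tterm by -1.56 (SE 0.34, adjusted p = 0.00083; edgeR adjusted p = 0.00045) and Tprog by -1.63 (SE 0.34, adjusted p = 9.7e-05). In the young OTC groups it had 27.2 and 36.8 in Tprog, 117 to 124 in Ttran and 113 to 152 in Tterm, a Tprog difference of -1.99 (SE 0.31, adjusted p = 1.6e-07). Another Arid1b peak (chr17:5061398-5062148) ran the opposite way, with 54.4 and 46.1 in aged OTC Tprog and 6.54 and 13.7 in Tterm. Tprog was above Tterm by 2.28 (SE 0.63, adjusted p = 0.0046) in aged and 2.36 (SE 0.58, adjusted p = 0.00084) in young mice. These calls were lost without the Tprog replicate 1 of their age, and the aged call also without the aged OTC Tterm replicate 1 (adjusted p up to 0.12). A peak in Brd9, a subunit of the non-canonical complex (chr13:73955271-73956247), was lower in cells from aged mice by -0.95 (SE 0.19, adjusted p = 1.8e-05). The Arid1b peak chr17:5321606-5322184 was higher in them by 0.91 (SE 0.23, adjusted p = 0.00081).

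NuRD subunit and CHD remodeller genes had 82 peaks, the most of any role. They gave 26 calls between aged Tprog and Tterm (3 higher, 23 lower), 16 between young (5 higher, 11 lower), and 11 between Ttad and Tprog (9 higher, 2 lower). Beside these, 20.1%, 26.5% and 6.55% of all peaks were called. Mta3 encodes a NuRD subunit with a part in germinal-centre B cells. Its peak chr17:83730053-83730754 had 250 and 248 in aged OTC Tprog, 411 and 395 in Ttad, 453 and 507 in Ttran and 514 and 485 in Tterm. Tprog was below Tterm by -1.0 (SE 0.13, adjusted p = 5.5e-10), and Ttad above Tprog by 0.69 (SE 0.13, adjusted p = 7.5e-05; edgeR adjusted p = 0.00025). In young mice Tprog was below Tterm there by -0.52 (SE 0.12, adjusted p = 0.0002). Another Mta3 peak (chr17:83720284-83721771) was lower in aged Tprog by -1.23 (SE 0.24, adjusted p = 3.5e-05), with 60 and 79 against 131 and 203.

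Gatad2a encodes the p66-alpha subunit that ties the parts of NuRD together. Its peak chr8:69921569-69922109 had 169 and 237 in aged OTC Tprog, 340 and 411 in Ttran, 414 and 431 in Tterm and 282 and 325 in Ttad. In young OTC it had 226 and 244, 366, 315 and 296, and 277, 261 and 276. The difference of Tprog from Tterm was -1.07 (SE 0.17, adjusted p = 3.6e-07) in the aged and -0.21 (SE 0.15, adjusted p = 0.35) in the young. These differed by -0.87 (SE 0.23, adjusted p = 0.02), a call lost under 5 of 19 alternatives. Under the Zfp219 guide the peak was lower in young mice by -0.42 (SE 0.09, adjusted p = 0.00034), with 186 and 169, 204 to 260 and 184 to 228 in the 3 states. A stronger Gatad2a peak (chr8:69937449-69939133) was lower with the Dusp5 guide in aged mice by -0.29 (SE 0.04, adjusted p = 5e-07), with 642 to 907 over the 8 Dusp5 libraries and 830 to 1171 over the 8 OTC libraries. Within each state the 2 sets did not overlap, which the choice of named peaks required. Mbd2 encodes a reader of methylated DNA in NuRD. Its peak chr18:70575780-70576561 was lower with the Zfp219 guide in aged mice by -0.60 (SE 0.08, adjusted p = 1.1e-08), with 176 to 289 against 293 to 393, and was 0.08 (adjusted p = 0.65) in young mice.

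Chd7, a CHD remodeller gene known from CHARGE syndrome, had 30 peaks, and 13 were called with age, 4 higher and 9 lower. The peak chr4:8689781-8692201 was lower in young Ttran than Tterm by -0.76 (SE 0.13, adjusted p = 1.3e-05), with 206, 279 and 297 against 430, 414 and 463. The peak chr4:8942462-8943408, 74013 bp outside the gene, was lower in cells from aged mice by -1.29 (SE 0.23, adjusted p = 2.2e-06). A weak peak (chr4:8822652-8823456) was higher with the Zfp219 guide in aged mice by 1.06 (SE 0.29, adjusted p = 0.0033), with 19.9 to 48 over the Zfp219 libraries and 2.26 to 30.5 over the OTC libraries. The 2 sets did not overlap within a state, which the choice of named peaks required. The peak chr4:8720487-8721702 was lower in cells from aged mice by -0.95 (SE 0.10, adjusted p = 5.3e-13). With the Dusp5 guide it was higher in aged mice by 0.43 (SE 0.09, adjusted p = 0.00056). That Dusp5 call was lost with a single value per group (adjusted p = 0.082), and in young mice the value was -0.17 (SE 0.10, adjusted p = 0.37).

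Finally, 3 tests asked whether an effect differed between ages. The difference between Tprog and Tterm changed with age at 15 member peaks, 5 higher and 10 lower, 5.23% against 2.32% of all peaks (0.512% higher and 1.81% lower). Of these, 9 were start-site peaks, with those of Bmi1, Ring1, Arid1b, Kmt2c and Ncor1 higher and those of Gatad2a, Kdm4a, Sin3a and Hdac4 lower. Over all start-site peaks, 112 were higher and 226 lower. The Ring1 call (adjusted p = 0.049) was lost under 12 of 19 alternatives, with an adjusted p up to 0.25. After quantile normalization 4 of 6 calls were higher. The count was 8 or 9 without the aged OTC Tprog replicate 2, either aged OTC Tterm library or either young OTC Tprog library, 23 with library weights and 24 with the compared groups alone or by DESeq2. The Zfp219 effect differed at 29 member peaks, 18 higher and 11 lower, 10.1% against 9.11% (4.09% higher and 5.01% lower), and all 7 start-site calls were higher, among them Ring1, Dnmt3a and Chd4. Over all start-site peaks, 545 were higher and 127 lower in that test. With a single value per group the Zfp219 effect differed at 6 member peaks. The Dusp5 effect differed at 8, 3 higher and 5 lower, 2.79% against 4.0% (1.27% higher and 2.73% lower), and at 5 without the aged OTC Tterm replicate 2. That count was 1 with a single value per group, 13 with the compared groups alone and 15 by DESeq2. After quantile normalization 5 of 8 were higher.

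**Figure D5:**
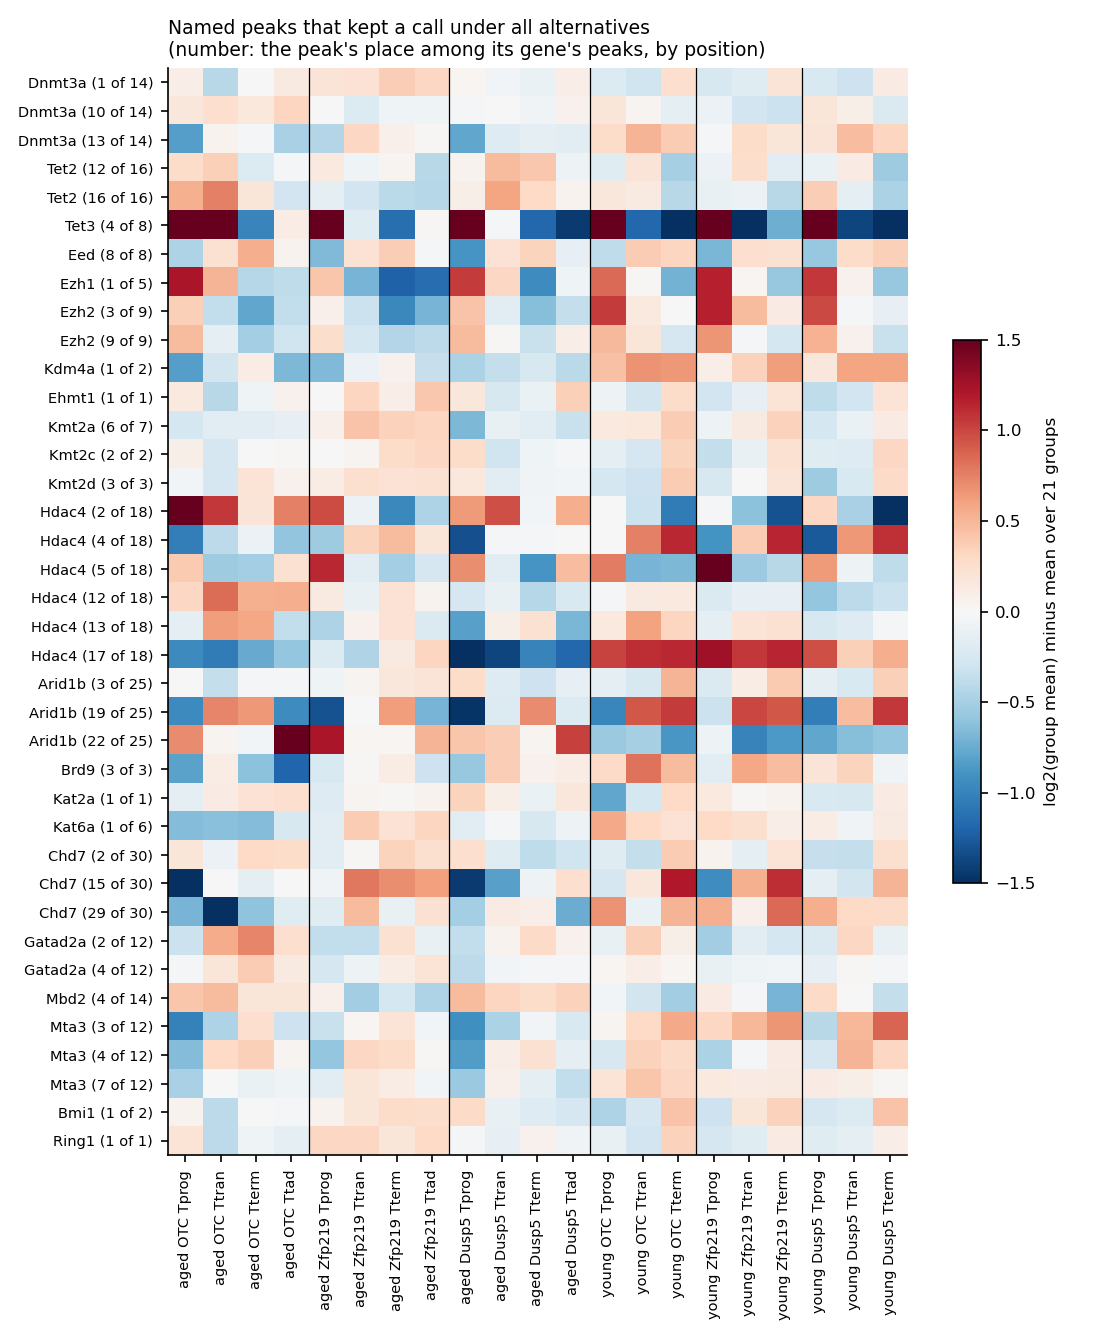
Log2 of the group mean minus the mean over 21 groups (colour, limited at 1.5 in each direction) for 38 named peaks of 22 genes that kept a call under all alternatives tried, with groups in columns. Tet3 is at or near the upper limit in all 6 Tprog columns, and the Hdac4 peak nearest the start among those shown (17 of 18) is blue in most aged and red in all young columns.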

How the data were processed

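ATAC-seq accessibility was measured in 48 libraries of sorted OT-1 CD8 T cells. The authors deposited one signal table of normalized reads per peak. Each value was a whole read count divided by 1 factor per library, tested on the values at a tolerance of 0.01 of a read. The submitters' processing notes name Bowtie2 2.2.9, Picard 2.8.0, MACS2 2.1.1, SAMtools 1.3.1, DESeq2 1.28.1 and mm10, with no order, so whether peaks were called on pooled libraries is not given in the sources used here. Peak names are used as deposited, and whether they count from 0 or 1 is not stated.

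Peaks were assigned to genes with RefSeq gene bodies on GRCm38.p6, which also gave the promoter sequences. Here log2(value + 1) was fitted with limma 3.58.1 in R 4.3.3 (lmFit, contrasts.fit, eBayes with trend) on group means of all 48 libraries. P-values were adjusted by Benjamini-Hochberg over 53868 peaks and called under 0.05. A fold change is on this log2(value + 1) scale and understates changes of weak peaks. Every adjusted p is limma's unless edgeR is named. No sample column was left unmapped.

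Named peaks were called, did not overlap between groups (in every state for means, and not asked of the tests between ages) and had a mean of at least 20 normalized reads in a compared group. They were ranked by size of the log2 difference with 1 peak per gene, up to 12 per state or age comparison, 6 per guide and 4 per test between ages, and a member's strongest and start-site peaks could be named whatever their result. Other comparisons of a named peak, and start-site peaks given by name, were chosen after their values were seen. Members and lists were chosen with earlier results of these data known. The fits were repeated with TMM factors, a pseudocount of 8, the weakest 25% of peaks left out, quantile normalization, library weights, the compared groups alone, a replicate block, a single value per group, edgeR 4.0.16 quasi-likelihood and DESeq2 1.42.0 on the recovered reads, and each library left out. The fits were also run on simulated data with raised peaks, for Ttad against Tterm and for age only. No result here rests on that run.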

Additional observations from a re-analysis of the deposited data

Results flagged for a closer look

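Effects that differed between ages by their own limma test are listed here. The difference between Tprog and Tterm in OTC controls changed with age at 15 member peaks. Of the peaks named, the change was 0.94 at the Bmi1 start site, 0.72 at the Ring1 start site, 0.68 at the Arid1b start site and -0.87 at the Gatad2a peak chr8:69921569-69922109, all as log2 differences of aged minus young. The Ring1 call was lost under 12 of 19 alternatives (adjusted p up to 0.25), the Gatad2a call under 5 and the Bmi1 call under 1. The Zfp219 effect differed between ages at 29 member peaks. Named values were 1.44 at Chd7 (chr4:8822652-8823456), 1.09 at Mta3 (chr17:83777703-83778393), 1.03 at Hdac4 (chr1:91983512-91985049) and -1.09 at Ezh1 (chr11:101194324-101195869). The Chd7 and Mta3 calls were each lost with a single value per group and without any 1 of 7 libraries (adjusted p up to 0.11). The Dusp5 effect differed at 8 member peaks. Named values were 0.79 at Kat6a (chr8:22838378-22839499), 0.62 at Chd7 (chr4:8720487-8721702), 0.43 at Hdac4 (chr1:92118908-92119959) and -0.50 at Gatad2a (chr8:69933724-69934680). The Chd7, Hdac4 and Gatad2a calls were lost with a single value per group (adjusted p = 0.18, 0.099 and 0.098). Each of these rests on age, which cannot be told apart from any difference in handling between the separately numbered aged and young libraries.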

How the results depend on the processing

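Named peaks gave 110 results, each a peak in 1 comparison, and a peak named in several comparisons counts in each. Of these results, 49 kept their call under every alternative run, and they cover 38 peaks of 22 genes. Over 2090 values of named peaks under alternatives, 1820 kept direction and side of the threshold, 270 missed the threshold and 0 reversed. Of 140 counts under alternatives other than a left-out library, 120 lay within 1.5 times the main count, and the others follow. With a single value per group, Tprog against Tterm in the young gave 131 calls, age 61, Zfp219 35 in the aged and 9 in the young, Dusp5 6 and 3, Zfp219 by age 6 and Dusp5 by age 1. After quantile normalization, Zfp219 in the young gave 21, Dusp5 25 in the aged and 7 in the young, and Tprog against Tterm by age 6. With library quality weights, Ttran against Tterm in the aged gave 6 and Tprog against Tterm by age 23. With the compared groups alone the counts were 6 and 24, and Dusp5 by age gave 13. DESeq2 gave 28 for Dusp5 in the young, 24 for Tprog against Tterm by age and 15 for Dusp5 by age. The cause was not tested. Leaving out 1 library gave 39 to 52 and 52 to 61 calls for Tprog against Tterm in the aged and young, 2 to 12 and 28 to 38 for Ttran against Tterm, 5 to 17 for Ttad against Tterm and 10 to 25 against Tprog. It gave 84 to 99 for age, 73 to 82 and 22 to 33 for Zfp219 in the aged and young, 30 to 42 and 8 to 14 for Dusp5, and 8 to 13, 23 to 34 and 5 to 11 for the 3 tests between ages. With a replicate block the counts were 66 and 66 for Tprog against Tterm, 13 and 38 for Ttran against Tterm, 18 and 22 for Ttad, 98 for age, 88 and 29 for Zfp219, 40 and 11 for Dusp5 and 11, 30 and 8 between ages. Deviations from group means correlated from -0.015 to 0.017 over 57 pairs of libraries with the same number. Whether such libraries came from the same pool of mice cannot be told from this, since noise of single libraries could hide a shared part. Weak peaks, such as those at Tet3, Setd2 and Chd7 with under 20 normalized reads in a group, are limited by depth.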
